A study of Mus musculus with 16 samples.

Results

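Late restoration of WDR5 was compared with early restoration in mouse embryoid bodies, which are floating clumps of differentiating embryonic stem cells, at day 6. Both groups came from a single Wdr5 knockout clone, clone 3 of the series title, in which doxycycline induces human WDR5. Doxycycline was added at the time labelled T12h in the early group (T12h rescue) and at T48h in the late group (T48h rescue), so the groups differ in when WDR5 returned and also in how long doxycycline was present. The parent line, which all groups share, carries GFP knocked in at Rx (Rax). Aggregates were grown by SFEBq, a serum-free floating culture, in GMEM medium with 5% KSR, and received 2% Matrigel, an extract of basement membrane, at day 1. The groups were taken from the labels alone: 8 of the 16 samples are rescue samples, each rescue having 2 biological duplicates sequenced in 2 technical runs. Summing the runs gave 4 rescue libraries of 8 in all. The other groups, wild type (WT) and the knockout clone without rescue (KO), are used here as reference levels. The labels do not say whether the duplicates were separate cultures, so p-values measure only the spread between these libraries, called a and b without any order.

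WDR5 is a WD40-repeat protein that the COMPASS/MLL complexes share. These complexes methylate lysine 4 of histone H3 at promoters and enhancers. Mouse embryonic stem cells in SFEBq culture with Matrigel are known to form neural epithelium of forebrain character in which an eye field, marked by Rax, Six3, Six6, Lhx2 and Pax6, arises. BMP, Wnt and Nodal signals direct such aggregates away from the neural path and towards mesoderm, from which heart muscle, vessels and connective tissue descend.

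The 4 rescue libraries held between 39762127 and 53298377 fragments in named genes, and the WT and KO libraries between 32476651 and 65687435. Library a of the T48h rescue had a count in 15597 genes, fewer than the 16640 to 16900 genes of the other rescue libraries. The log2 ratio between duplicates had an SD of 0.268 for the late duplicates and 0.194 for the early ones over genes at 5 CPM or more. CPM are counts scaled to a common library size, after each size was adjusted by the TMM method. The TMM factors were 1.01 and 1.00 for the T12h rescue and 0.92 and 0.91 for the T48h rescue. Unless another comparison is named, a difference below is a log2 fold change of the T48h rescue over the T12h rescue. A gene passed when its adjusted p from edgeR's quasi-likelihood test, with Benjamini-Hochberg adjustment, was under 0.05. Where a standard error (SE) is given, it was derived from the fold change and the F statistic of that test. Coordinates are those of the deposited table for build mm10. The genes whose 4 library values are printed below did not overlap between the rescues, as was the case for 74.3% of all genes tested.

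Wdr5, the deleted gene, checks the labels of WT, KO and the rescues together, but cannot check which rescue is which. The Wdr5 locus read 329 and 337 CPM in the T12h rescue and 280.0 and 294 CPM in the T48h rescue, against means of 186 CPM in WT and 30.4 CPM in KO. Both rescues thus lay above WT and KO, and the late rescue was slightly lower than the early rescue (-0.21 ± 0.07 SE, adjusted p = 0.0285). This small difference missed the threshold when T12h rescue library b (adjusted p = 0.0600), T48h rescue library a (adjusted p = 0.0806) or 1 run of each pair (adjusted p = 0.0545) was left out of the edgeR test. Fragments from the human WDR5 transgene that align to the mouse gene cannot be told apart from mouse transcripts in these counts. Of the 19 COMPASS/MLL subunits on the list, 2 rose, Wbp7 (Kmt2b) by 0.38 and Kdm6a by 0.38, and 3 fell, Wdr82, Wdr5 and Psip1, by 0.32, 0.21 and 0.21 on the log2 scale. No subunit moved 2-fold. Psip1 and Wbp7 also lost their call when single libraries were left out, and the counts then ranged from 1 to 3 in either direction.

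The rescues differed in a large part of the measured genes. Of 16130 genes tested, 4014 (24.9%) were higher and 4086 (25.3%) lower in the T48h rescue, together 50.2%. At least 2-fold changes were found in 1774 higher genes (11.0%) and 1917 lower genes (11.9%). Differences of 6 or more on the log2 scale were found in 184 higher and 163 lower genes. These shares are the background for the counts of gene lists below, and the median over all genes was -0.03. Against WT, 2261 genes (14.0%) differed in the early rescue and 7627 (47.3%) in the late rescue. The last 2 comparisons share the WT libraries.

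**Figure D1:**
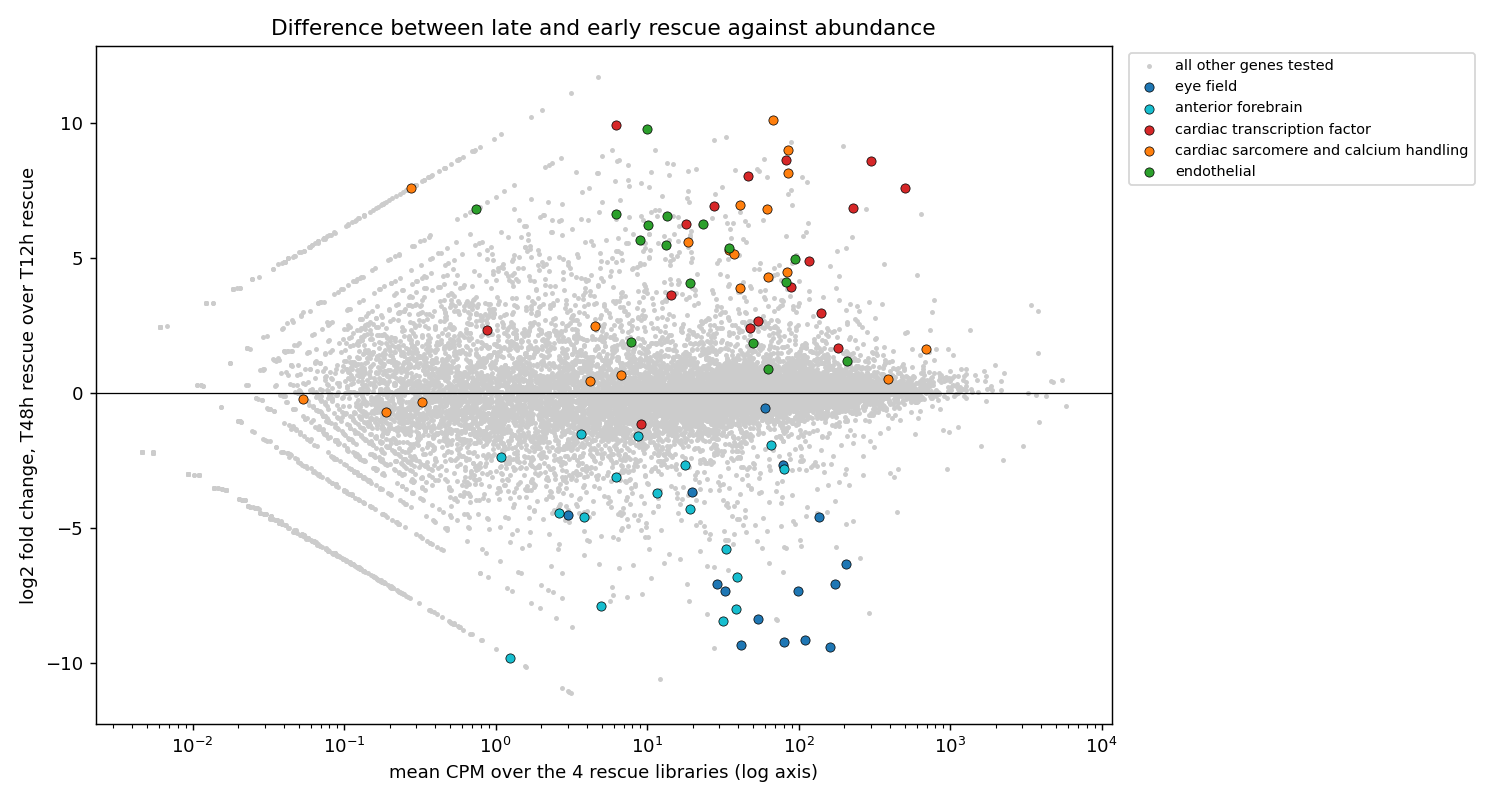
Each point is a gene, with its mean CPM over the 4 rescue libraries on a log axis and its log2 fold change, T48h rescue over T12h rescue. Eye field and anterior forebrain genes lie below 0, and cardiac and endothelial genes lie mostly above 0; the slanted lines at the left are genes with few counts, whose fitted change is no bound.

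Of the 15 largest decreases 5 were members of the eye field list and 1 of the anterior forebrain list. Cntn6, a neuronal adhesion molecule, Fam181a and Lonrf2 had no count in either T48h library and fell at least 163-fold, 159-fold and 142-fold, against a floor of 3 counts over the group. Hmx1, a homeobox gene of the eye and sensory organs, had 2420 counts in the early libraries and 1 in the late libraries, a ratio of 1887 (exact 95% interval 338 to 74554, counting error only). The other 11 were Six6, Vax2, Aldh1a3, Rax, Trpm3, Lmo3, Mab21l1, Nr2e1, Cp, Nlgn1 and Six3os1. Six3os1, the antisense partner of Six3, fell from 579.6 to 2.08 CPM on average. Without a stated strand setting its reads cannot be told apart from those of Six3 where they overlap.

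The largest increases included genes of heart muscle and vessels. Trim55, a muscle ring finger protein of the sarcomere, had no count in the T12h rescue and 9.07 and 9.93 CPM in the T48h libraries, at least 316-fold higher. Pyy, a gut peptide hormone, was at least 209-fold higher. Alpk2, a kinase known in heart development, read 0.0555 and 0.132 CPM in the T12h rescue and 59.0 and 73.5 CPM in the T48h rescue. The small heat shock protein Hspb7 of heart muscle had 2 counts against 784, a ratio of 503 (exact 95% interval 139 to 4159). The other 11 were Tnnt2, Nkx2-5, Erg, Eef1a2, Cfc1, Rgs5, Rubie, Tac2, Tnni1, Aqp7 and Ccdc80. Cfc1 (Cryptic), a Nodal co-receptor, rose from 0.280 to 178 CPM on average, and Eef1a2, the translation factor of muscle and neurons, from 0.0793 to 55.5 CPM.

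**Figure D2:**
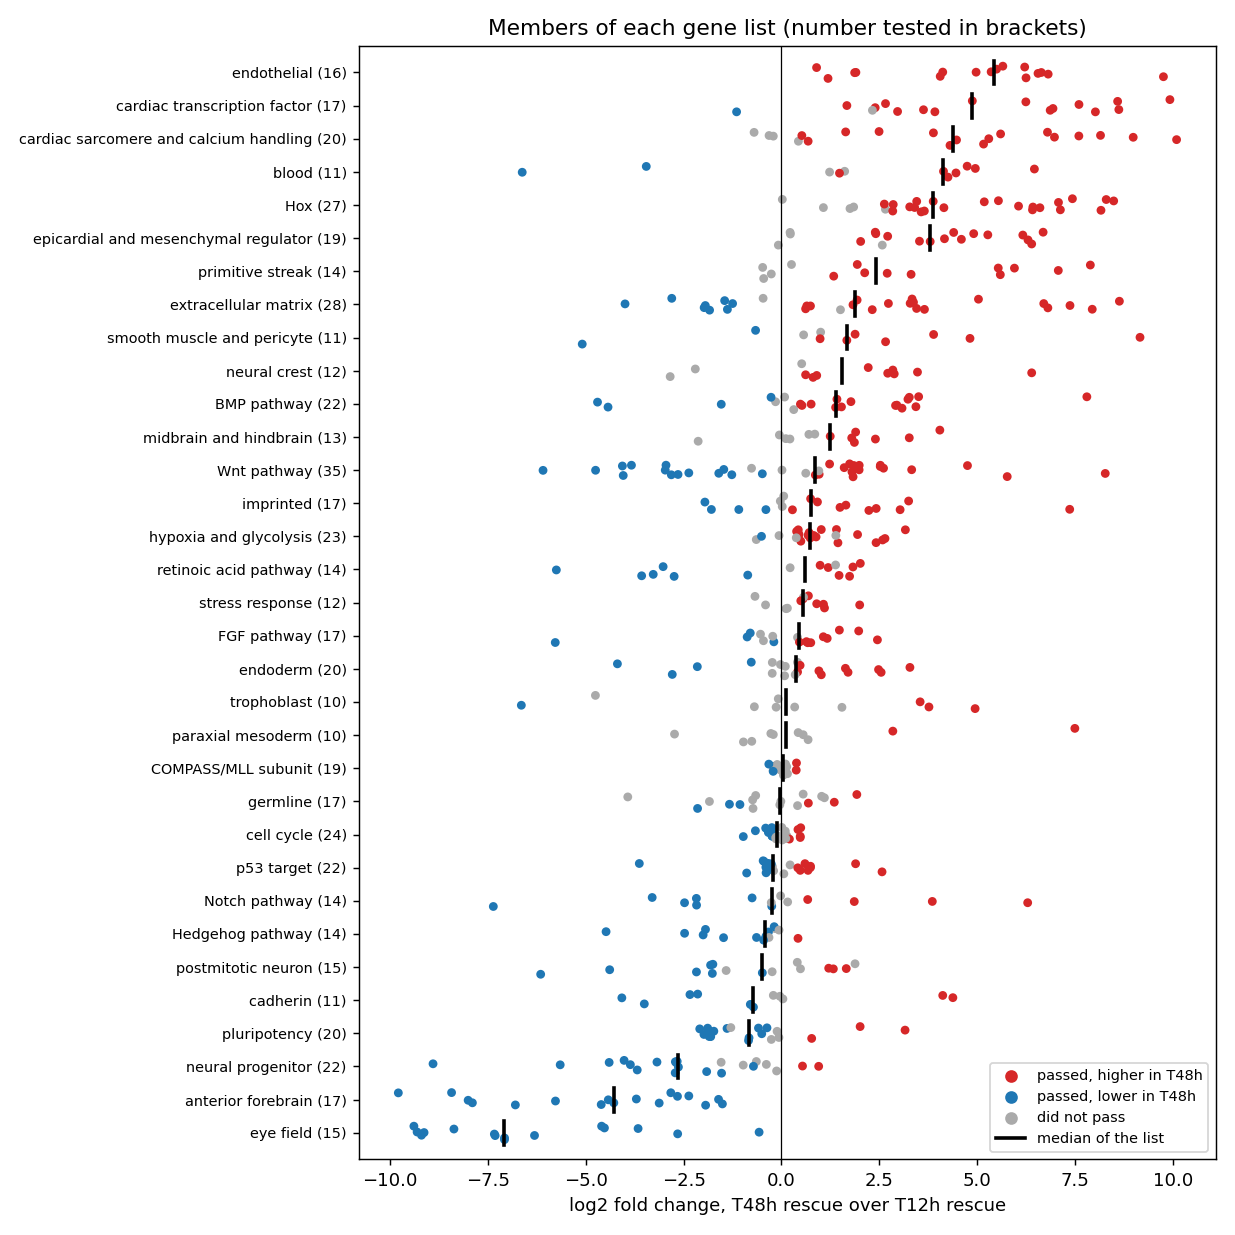
Each point is a gene of a list, at its log2 fold change of T48h rescue over T12h rescue, coloured by whether it passed; the black bar is the list's median. The eye field list lies at the bottom with a median of -7.08 and the endothelial list at the top with a median of 5.43.

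Genes of the eye field were lower in the late rescue than in the early rescue. Against WT, 6 of 15 members were higher and 3 lower in the early rescue, where 7.90% and 6.11% of all genes were. Between the rescues all 15 members tested fell (100% against 25.3% of all genes), with a median of -7.08, and the 16th, Atoh7, had too few counts. Rax (chr18:65934639-65939089), the homeobox gene that defines the field, read 223 and 215 CPM in the T12h rescue and 0.545 and 0.245 CPM in the T48h rescue. Both early libraries were high and both late libraries under 1 CPM (-9.13 ± 0.16 SE, adjusted p = 2.04e-13, edgeR). Its mean was 195 CPM in WT and 0.788 CPM in KO. Six3 (chr17:85620834-85626191), a repressor of Wnt signalling in the forebrain, read 341 and 344 CPM in the T12h rescue and 3.02 and 2.08 CPM in the T48h rescue (-7.08 ± 0.16 SE, adjusted p = 1.2e-12, edgeR). The late rescue was thus at 2.55 CPM on average where KO was at 1.77.

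Six6, which keeps retinal progenitors dividing, read 309.6 and 335 CPM in the T12h rescue and 0.327 and 0.613 CPM in the T48h rescue. Lhx2, required for the optic vesicle, read 397 and 413 CPM in the T12h rescue and 4.85 and 5.34 CPM in the T48h rescue. Pax6, at the head of eye development, read 265 and 260.5 CPM in the T12h rescue and 11.4 and 10.4 CPM in the T48h rescue. Pax6 in the late rescue stayed above its KO mean of 1.02 CPM. The late rescue minus KO difference of Pax6 was 3.32 (SE 0.17, adjusted p = 2.14e-09, edgeR). Of the 15 members, 3 were higher and 7 lower in the late rescue than in KO, with a median of -0.63. Of all genes 34.2% were higher and 33.2% lower in that comparison. Regulators of the optic vesicle's axes were also low: Vax2 and Vax1 of the ventral side fell by 9.31 and 7.34, Pax2 of the optic stalk by 7.32 and Foxd1 of the temporal retina by 7.08 on the log2 scale. Aldh1a3, a retinoic acid synthesis enzyme of the ventral retina, fell by 9.20, and Nr2e1 (Tlx) by 8.37. Mitf, which specifies pigment epithelium, fell by 3.66. Otx2 fell by 2.65 and Mab21l2 by 0.57, the smallest change of the list. In total the list's members summed to 2464 and 2482 CPM in the early rescue, 99.4 and 91.2 CPM in the late rescue, 2225 and 2114 CPM in WT and 118 and 123 CPM in KO. In these bulk samples, fewer cells of a type and less RNA per cell cannot be told apart.

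**Figure D3:**
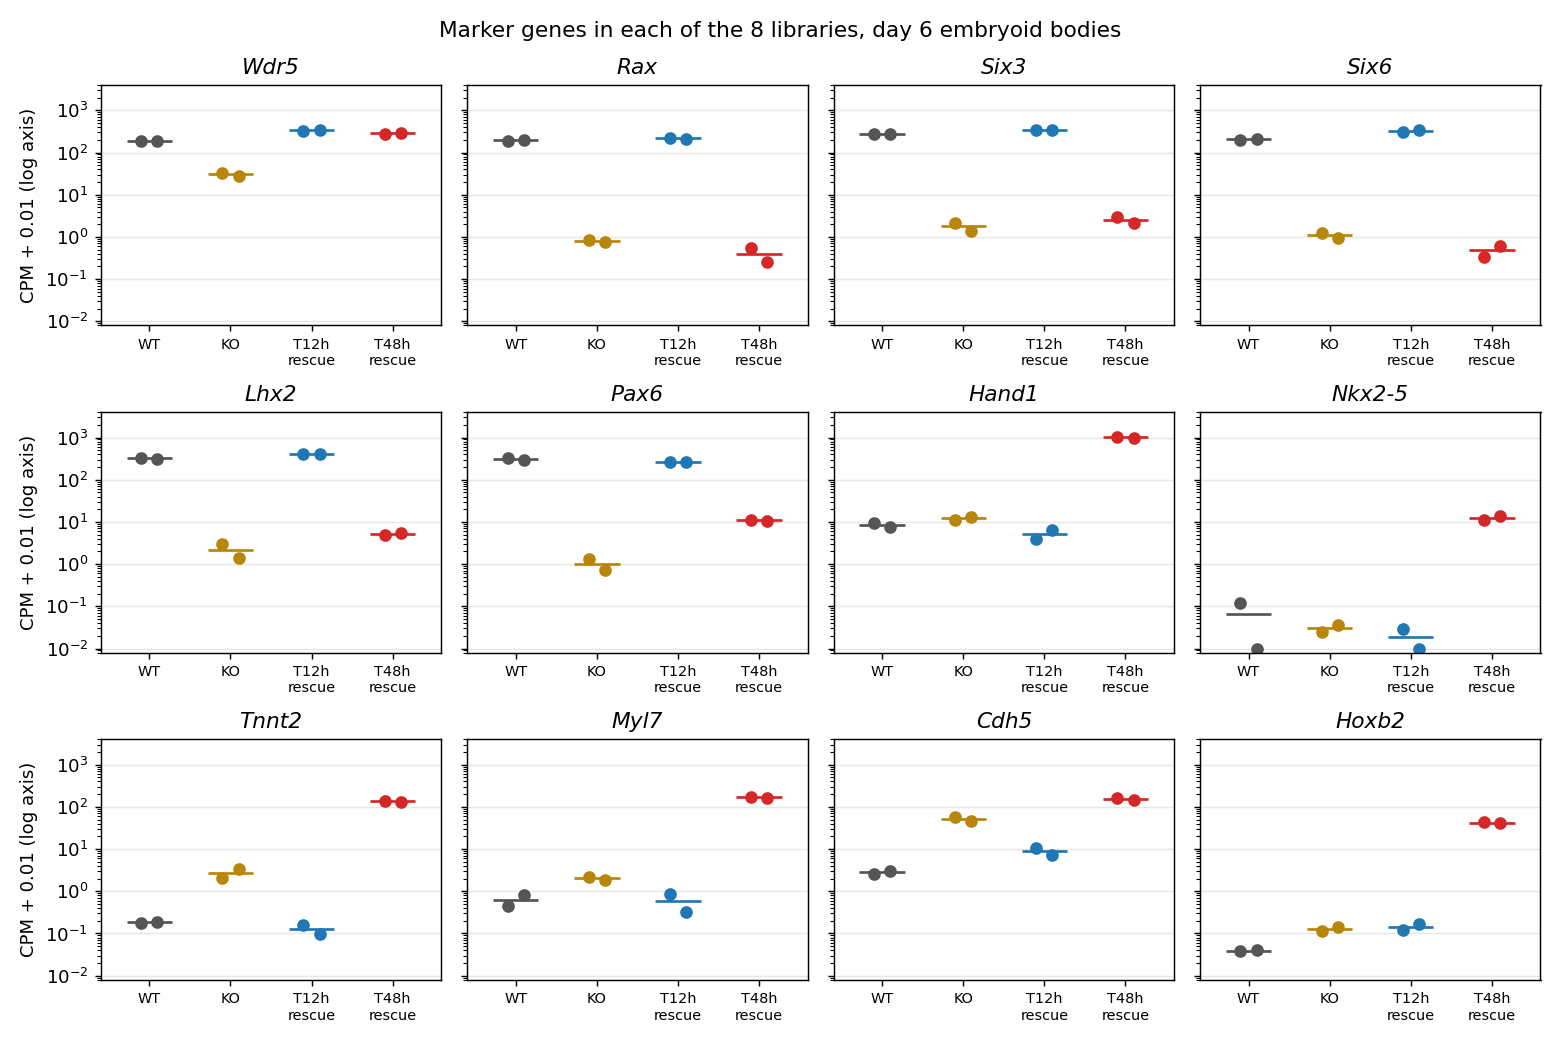
CPM plus 0.01 on a log axis for 12 genes in each of the 8 libraries (points, library a left and b right) with the group mean (line). Rax, Six3, Six6, Lhx2 and Pax6 are high in WT and the T12h rescue, and Hand1, Nkx2-5, Tnnt2, Myl7, Cdh5 and Hoxb2 are highest in the T48h rescue.

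Anterior forebrain genes fell with the eye field. All 17 members tested were lower, with a median of -4.28. Lmo3, a LIM-only protein expressed in forebrain, read 60.9 and 65.5 CPM in the T12h rescue and 0.109 and 0.245 CPM in the T48h rescue. Fezf1 and Fezf2, which pattern the anterior forebrain, fell by 6.80 and 5.77 on the log2 scale. Nkx2-1 of the ventral forebrain had 983 counts in the early rescue and 3 in the late rescue, a ratio of 255 (exact 95% interval 87.2 to 1241). The noncoding RNA Rmst, at 2.50 CPM in the early rescue, had no count in the late rescue and fell at least 66.0-fold. Emx2 and Zic5 changed least, and fell by 1.51 and 1.61. Some forebrain genes were below WT already in the early rescue: Zic1 was at 7.32 CPM against 41.8 CPM in WT and Emx2 at 5.45 against 36.2 CPM. In that comparison 5 members were higher and 6 lower than WT, where 7.90% and 6.11% of all genes were.

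General neural progenitor genes were lower too, though not to zero. Of 22 members 15 fell and 2 rose, with a median of -2.65. Sox2, Sox1 and Sox3, the SoxB1 factors of neural epithelium, fell by 4.40, 3.86 and 5.65 on the log2 scale. Sox2 read 292 and 296 CPM in the T12h rescue and 14.6 and 13.3 CPM in the T48h rescue, and its KO mean was 122 CPM, so the late rescue was the lowest group. Late minus KO, Sox2 was lower by 3.13 (SE 0.08, adjusted p = 6.14e-12, edgeR). Nes and Prom1 both fell by 2.71. Sox4 and Ncam1, which mesenchyme and heart also express, rose by 0.54 and 0.95. Among 15 genes of postmitotic neurons 7 fell and 3 rose: Syt1, the synaptic vesicle calcium sensor, fell by 6.15, Tubb3 by 1.76 and Map2 by 2.17, while Nefl, Stmn2 and Gap43 rose by 1.21, 1.33 and 1.66.

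Genes of more posterior neural regions did not follow the forebrain. In the midbrain and hindbrain list 7 of 13 members rose and none fell, although most were scarce. The early rescue was already below WT in 8 of the 13 and above it in none, where 6.11% of all genes were below. The late rescue was above WT in 2 and below it in 4, with a median of -0.74. Of all 16130 genes, 3858 were above WT and 3769 below it in the late rescue. Irx3, expressed in posterior neural tube and in mesoderm, read 3.31 and 4.63 CPM in the T12h rescue and 64.1 and 66.7 CPM in the T48h rescue. The midbrain gene En1 rose from 0.458 to 4.32 CPM. The number that rose was 4 without T48h rescue library a, when the calls of Gbx2, Lmx1a and Lmx1b were lost. In the neural crest list 9 of 12 rose and none fell. Snai2, shared with mesenchyme, read 1.68 and 0.991 CPM in the T12h rescue and 123 and 106 CPM in the T48h rescue, and Ets1, shared with endothelium, rose from 9.96 to 111 CPM. The crest gene Sox10 was scarcer, at 1.18 and 8.69 CPM. The list's median was 1.56 as fitted and 2.22 with genes without counts at their bound.

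Of 17 cardiac transcription factors 15 rose and 1, Hopx, fell, with a median of 4.88. Their summed level went from 184 and 204 CPM in the early libraries to 3523 and 3553 CPM in the late libraries. Hand1 (chr11:57828713-57841866), a basic helix-loop-helix factor of the heart and lateral mesoderm, read 3.90 and 6.54 CPM in the T12h rescue and 1043 and 966 CPM in the T48h rescue (7.60 ± 0.19 SE, adjusted p = 2.94e-12, edgeR). Its means in WT and KO were 8.53 and 12.3 CPM, so it was high in the late rescue only among the 4 groups: late minus WT was 6.88 (adjusted p = 5.7e-12, edgeR) and late minus KO was 6.36 (adjusted p = 7.03e-12). Hand2, its partner in the second heart field and limb, read 1.22 and 1.92 CPM in the T12h rescue and 618 and 577 CPM in the T48h rescue. Nkx2-5, the homeobox factor of cardiac progenitors, had 1 count in the early rescue and 977 in the late rescue, a ratio of 1253 (exact 95% interval 224 to 49545).

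Gata5 rose from 0.415 to 164 CPM, Gata6 from 31.9 to 249 and Gata4 from 86.3 to 275 CPM. The last 2 also serve in endoderm and were at 121 and 216 CPM in KO. The T-box factors Tbx20 and Tbx5 rose by 6.87 and 6.25 on the log2 scale, Isl1 of the second heart field by 6.94, and Mef2c and Myocd, which switch on muscle genes, by 4.88 and 8.02. Smarcd3 (Baf60c), the chromatin remodelling subunit of heart, read 10.8 and 11.4 CPM in the T12h rescue and 164 and 173 CPM in the T48h rescue. Hopx fell from 12.5 to 5.63 CPM. Irx4 of ventricle, at 1.47 CPM in the late rescue, did not pass (adjusted p = 0.0638).

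Contractile genes rose with these factors, though in part. Of 20 loci tested on the sarcomere and calcium handling list 16 rose and none fell, with a median of 4.39 as fitted and 4.22 with genes without counts at their bound. Tnnt2 (chr1:135836334-135852268), cardiac troponin T, read 0.148 and 0.0881 CPM in the T12h rescue and 138 and 133 CPM in the T48h rescue (10.10 ± 0.27 SE, adjusted p = 5.78e-12, edgeR). WT lay at 0.172 CPM and KO at 2.66 CPM. Tnni1, the slow troponin I of embryonic heart, read 0.259 and 0.419 CPM in the T12h rescue and 176 and 165 CPM in the T48h rescue. Myl7 and Myl4, the atrial light chains that the whole embryonic heart expresses, rose by 8.15 and 6.98. Ttn, titin, rose by 6.80, Actc1, cardiac actin, by 5.17 and Tnnc1, troponin C, by 5.30. Myh6 and Myh7, the cardiac myosin heavy chains, share 1 locus in the table, which rose from 7.17 to 159.6 CPM.

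Not all heart muscle genes were up. Nppa and Nppb, the natriuretic peptides of working myocardium, were at 0.0490 and 0.291 CPM in the late rescue and did not pass, nor did Casq2 at 0.143 CPM and Actn2 at 4.81 CPM. Myl2 of ventricle had no count in the early rescue and a mean of only 0.551 CPM in the late rescue, and its call was lost without T12h rescue library a or b or T48h rescue library a. On the per-length scale of FPKM the most abundant of the list in the late rescue was Tpm1 at 709.6, which is not particular to muscle. Myl7 followed at 354 FPKM, then Tnni1 at 157, Tnnt2 at 111, Tnnc1 at 110.0 and Myl4 at 99.1 FPKM. In KO 14 of the list were higher than in WT, against 31.7% of all genes, such as Ttn at 33.6 CPM and Ldb3 at 14.3 CPM. Late minus KO, 14 were higher and 3 lower (34.2% and 33.2% of all genes), and the 3 were Casq2, Nppb and Myl3, at 7.56, 1.89 and 13.5 CPM in KO.

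The promoters of these genes are shown because many muscle genes carry a CArG box, the motif bound by serum response factor, close to their start. RefSeq promoters of build GRCm38.p6 matched 18 of the 20 loci, and a CArG box was found within the 250 bases before the start in 5 of 18 (27.8%), against 1.47% of the 32851 promoters in the table. A locus counted when any of its annotated starts held a box, whereas the 1.47% is per promoter. By gene, 1.49% of the 11357 tested genes with a matched promoter (70.4% of all tested) held one. The CArG motif reads the same on both strands. A second motif, AGATAA, was also searched for on both strands. It was found in 4 of the 18 loci (22.2%), against 7.66% of the 11357 genes. Neither share was tested. The 5 promoters follow, 5′ to 3′ on the gene's strand, with the CArG box in capitals. Each lies before an annotated start picked because it held a box, and which start these samples used was not measured.
Actc1 (chr2:114052876-114053125, minus strand): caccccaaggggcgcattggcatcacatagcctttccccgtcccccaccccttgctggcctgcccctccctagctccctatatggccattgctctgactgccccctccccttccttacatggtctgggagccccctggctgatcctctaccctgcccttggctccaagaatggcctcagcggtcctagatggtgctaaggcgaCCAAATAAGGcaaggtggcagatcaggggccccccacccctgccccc
Ldb3 (chr14:34588682-34588931, minus strand): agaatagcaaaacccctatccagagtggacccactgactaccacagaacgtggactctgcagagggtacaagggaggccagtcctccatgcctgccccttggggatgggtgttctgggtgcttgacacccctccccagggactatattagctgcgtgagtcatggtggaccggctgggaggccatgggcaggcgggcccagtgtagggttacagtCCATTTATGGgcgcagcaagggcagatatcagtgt
Myl3 (chr9:110763428-110763677, plus strand): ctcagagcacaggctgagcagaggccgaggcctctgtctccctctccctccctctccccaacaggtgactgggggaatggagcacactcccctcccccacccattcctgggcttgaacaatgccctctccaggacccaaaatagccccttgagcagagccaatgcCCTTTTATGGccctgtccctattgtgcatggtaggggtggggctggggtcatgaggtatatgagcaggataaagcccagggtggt
Myl7 (chr11:5898783-5899032, minus strand): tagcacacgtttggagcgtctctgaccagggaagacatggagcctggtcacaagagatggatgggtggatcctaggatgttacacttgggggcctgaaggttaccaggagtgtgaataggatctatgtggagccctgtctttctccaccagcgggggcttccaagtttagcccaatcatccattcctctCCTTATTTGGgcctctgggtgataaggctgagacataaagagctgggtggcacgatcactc
Nebl (chr2:17462857-17463106, minus strand): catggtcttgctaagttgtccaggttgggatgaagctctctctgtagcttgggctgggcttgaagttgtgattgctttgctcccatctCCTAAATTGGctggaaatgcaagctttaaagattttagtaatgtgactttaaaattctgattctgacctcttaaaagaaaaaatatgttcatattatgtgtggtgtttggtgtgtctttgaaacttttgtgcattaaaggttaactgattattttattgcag
Counted from the start, the box begins at -47 in Actc1, -35 in Ldb3, -85 in Myl3, -61 in Myl7 and -162 in Nebl. All 5 genes rose, but so did 16 of the 20 loci tested on their list, against 24.9% of all genes. A link between the box and the rise was not tested. The changes were 5.17 for Actc1, 5.60 for Ldb3 (a Z-disc protein), 8.15 for Myl7 and 4.31 for Nebl (nebulette of the Z-disc). Myl3 rose by 0.68, and its call was lost in 3 of the 4 tests without a single library. A match is a description of these letters, and binding was not measured here.

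Smooth muscle and pericyte genes rose in part. Of 11 members 7 rose and 2 fell. Rgs5, a pericyte marker, read 0.944 and 0.374 CPM in the T12h rescue and 381 and 403 CPM in the T48h rescue. Acta2, Des and Pdgfrb rose by 2.66, 4.82 and 3.89 on the log2 scale. Mylk, the myosin light chain kinase, fell from 119.9 to 3.51 CPM, and Tagln fell by 0.66. Myh11, the defining myosin of mature smooth muscle, was at 0.935 CPM in the late rescue and did not pass.

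Endothelial genes rose without exception, in all 16 members, with a median of 5.43. Tek, the angiopoietin receptor, read 5.90 and 5.68 CPM in the T12h rescue and 194 and 170.2 CPM in the T48h rescue. Cdh5, VE-cadherin, read 10.5 and 7.27 CPM in the T12h rescue and 166 and 146 CPM in the T48h rescue. Erg had 2 counts in the early rescue and 1546 in the late rescue, a ratio of 991 (exact 95% interval 274 to 8194). Etv2, the factor that starts the endothelial and blood lineages, rose from 0.120 to 12.3 CPM. Kdr, the VEGF receptor, was already at 127 CPM in the early rescue and 83.7 CPM in WT and rose by 1.19, and Flt1 rose by 0.90. KO had intermediate levels of some members, such as 54.6 CPM of Tek and 52.2 CPM of Cdh5.

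Regulators of early blood rose, and globins did not. Of 11 blood genes tested 7 rose and 2 fell. Tal1, Lmo2 and Gata2, which blood and endothelium share, rose by 6.46, 4.96 and 4.75. Runx1, needed for definitive blood, rose from 1.93 to 5.42 CPM. The embryonic globins Hba-x and Hbb-bh1 were the genes that fell, but T12h rescue library a carried the signal: Hba-x read 5.14 and 0.441 CPM in the T12h rescue and 0 and 0.0490 CPM in the T48h rescue and Hbb-bh1 7.31 and 0.617 CPM in the T12h rescue and 0.327 and 0.392 CPM in the T48h rescue. Without that library neither passed (adjusted p = 0.108 and 0.754, edgeR), with changes of -4.01 and -0.82.

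Mesenchymal regulators rose in 15 of 19 members, with a median of 3.80 and none lower. Msx1 and Msx2, homeobox targets of BMP signalling, read means of 2.94 and 10.7 CPM in the early rescue and 228 and 191 CPM in the late rescue. Twist1 and Twist2 rose by 4.40 and 6.69. Pdgfra, the receptor of early mesenchyme, read 117 and 137 CPM in the T12h rescue and 506 and 529.7 CPM in the T48h rescue. The epicardial genes Wt1, Tcf21 and Tbx18 rose by 6.17, 5.27 and 4.91 but stayed scarce, at 3.13, 12.4 and 1.86 CPM. Tbx18 lost its call without T12h rescue library b (adjusted p = 0.0662, edgeR). Zeb1, Zeb2 and Meis1, already expressed at 69.1 CPM or more in the early rescue, did not pass.

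Most basement membrane genes fell, and most genes of the interstitial matrix rose. Of 28 members 18 rose and 8 fell. Among 6 basement membrane genes 5 fell and 1, Col18a1, rose. Col4a1 and Col4a2, the chains of collagen IV, read means of 4806 and 2537 CPM in the early rescue and 1223 and 659 CPM in the late rescue. The laminin chain Lama1 fell by 2.80. All of these were higher in KO than in any other group, at 9902 CPM for Col4a1. Among 7 fibrillar collagens 5 rose and 2, Col2a1 and Col11a1, fell. Col1a1 read 5.35 and 4.47 CPM in the T12h rescue and 507 and 599 CPM in the T48h rescue. All 3 collagen VI genes rose, as did Fn1 (2.32), Tnc (7.37), Postn (6.70), Vcan (3.29) and Hapln1 (7.94), of which the last 2 belong to the cardiac jelly. Cadherins shifted less clearly. Cdh2, N-cadherin, fell by 0.72 and Cdh6 by 2.34, Cdh5 and Cdh3 rose by 4.12 and 4.38, and Cdh1, E-cadherin, was at 65.4 and 67.0 CPM (adjusted p = 0.800, edgeR).

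Genes of the primitive streak and nascent mesoderm rose in 10 of 14 loci, with a median of 2.42, at low levels. Wnt3 rose from 0.308 to 14.6 CPM, Eomes from 0.901 to 5.89 and Evx1 from 0.0753 to 4.61 CPM. Mesp1 and Mixl1 had no count in the early rescue and means of 0.671 and 0.379 CPM in the late rescue, at least 22.7-fold and 12.8-fold higher. Mixl1 lost its call without T12h rescue library a (adjusted p = 0.0558, edgeR). T (Brachyury), the defining gene of the streak, was at 0.307 and 0.252 CPM and did not pass. In KO 12 of the list were higher than in WT, against 31.7% of all genes. Late minus KO, none were higher and 7 lower (34.2% and 33.2% of all genes), with a median of -1.11. Paraxial mesoderm differed little: 2 of 10 members rose, Pax3 and Meox1 (a call lost without T12h rescue library a or b), and the segmentation gene Tbx6 was at 0.759 and 0.445 CPM.

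Ligands of the BMP pathway were higher in the late rescue together with some genes that BMP signalling induces. Of 22 members tested 15 rose and 4 fell. All 5 ligands tested rose. Bmp5 read 0.870 and 1.17 CPM in the T12h rescue and 229 and 223 CPM in the T48h rescue, Bmp4 rose from 18.9 to 178 CPM and Bmp2 from 3.83 to 36.8 CPM. Of the receptors Bmpr1a and Bmpr2 rose by 0.52 and 1.39, while Bmpr1b fell from 32.1 to 1.23 CPM. The feedback inhibitors Smad6, Smad7 and Bambi all rose, by 3.51, 2.95 and 3.44, and Id1, a direct target, by 1.53. Of the secreted antagonists Grem1 and Chrd fell by 4.43 and 1.54 and Nog rose by 1.42. Chrd was scarce, and its call was lost without T12h rescue library a or T48h rescue library a (adjusted p = 0.140 and 0.0998, edgeR). Of the 4 Id genes 2 rose, 1 did not pass and 1, Id2, fell by 0.27. The call of Id2 was lost without T12h rescue library b or T48h rescue library b.

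Of 35 members of the Wnt pathway 17 rose and 14 fell. Of 10 Frizzled receptors 7 fell and 3 rose: Fzd5, the receptor of the eye field, read 518 and 488 CPM in the T12h rescue and 6.81 and 7.92 CPM in the T48h rescue, and Fzd8 and Fzd1 fell by 4.06 and 2.64, while Fzd4, the receptor of vessels, rose by 3.33. Of 7 secreted inhibitors 3 fell and 2, Dkk1 and Sfrp5, rose (by 1.99 and 1.80). Sfrp1 and Sfrp2 fell from 789.9 and 439.7 CPM to 112 and 16.3 CPM. Of 9 ligands 5 rose, led by Wnt2, which read 0.241 and 0.242 CPM in the T12h rescue and 77.3 and 74.0 CPM in the T48h rescue, and 3 fell, Wnt5b, Wnt7b and Wnt8b. Of the R-spondins, which strengthen Wnt signals, Rspo3 and Rspo1 rose, Rspo3 from 0.686 to 37.8 CPM, and Rspo2 fell from 1.43 to 0.188 CPM. The call of Rspo1 was lost without T12h rescue library a or b, and that of Rspo2 without T12h rescue library a, without T48h rescue library b, with DESeq2 and with limma on log2(FPKM + 1). Of 6 genes that canonical Wnt signalling induces 5 rose, with Axin2 from 7.68 to 44.2 CPM and Lef1 from 23.0 to 82.9 CPM.

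Other signals also differed. Of 14 Hedgehog genes 10 fell and 1 rose. Gli1, the pathway's own target, fell from 37.8 to 6.79 CPM, and the ligand Ihh from 27.4 to 6.85 CPM. Gli2 rose by 0.42, a call lost without T12h rescue library a or b or T48h rescue library a. In the retinoic acid list 6 rose and 6 fell of 14: the binding and uptake genes Crabp1, Crabp2 and Stra6 fell by 3.02, 3.28 and 3.57, and the receptors Rara, Rarb and Rarg rose by 0.99, 2.02 and 1.83. In the Notch list 7 fell and 4 rose of 14. Hes1, Lfng and Dll1 of neural progenitors fell by 2.48, 3.30 and 2.17. Hey2 of the ventricle and vessels read 0.907 and 0.771 CPM in the T12h rescue and 66.4 and 66.2 CPM in the T48h rescue, and Dll4, the arterial ligand, rose by 3.86. Of 17 FGF genes 9 rose and 4 fell, with Fgfr3 up from 29.7 to 162 CPM and the feedback inhibitor Spry2 up by 1.48, while Fgf9 fell by 5.78. Only 2 fell without T12h rescue library a.

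Hox genes, which mark position behind the forebrain and are expressed in posterior mesoderm and neural tube, were near zero in the early rescue and rose in the late rescue. Of 39 genes 27 had enough counts for a test, 22 of these rose and none fell. The 12 others were at 0.144 FPKM or less in both rescues. No Hox gene exceeded 0.173 FPKM after early rescue, so a fall could hardly be seen and its absence is not informative. Genes such as Hoxa2, Hoxb3 and Hoxb8 were near zero in every other group and entered the test through their late counts. The shares of tested genes that rose are therefore set in part by the filter on low counts. Paralog groups are counted from the anterior end of the cluster. Of the genes tested, 10 of 10 rose in groups 1 to 4, 7 of 9 in groups 5 to 8 and 5 of 8 in groups 9 to 13. The medians were 6.42, 3.57 and 3.06. In groups 1 to 4, Hoxa3 and Hoxd3 lost their calls with DESeq2 (adjusted p = 0.064 and 0.542). Hoxa3, Hoxd3 and Hoxd4 also lost them in tests without single libraries, as did Hoxb7, Hoxc6 and Hoxa10 of the later groups. Hoxb2 read 0.111 and 0.154 CPM in the T12h rescue and 43.9 and 40.5 CPM in the T48h rescue (8.30 ± 0.27 SE, adjusted p = 2.81e-11, edgeR). On the FPKM scale Hoxb2 was the most abundant in the late rescue at 24.1, and Hoxb6 was at 10.2 and Hoxb4 at 6.57. Of the posterior genes Hoxd9 reached 4.06 FPKM, and Hoxa13 had no count in the early rescue and a mean of 1.02 CPM in the late rescue. The number that rose was 16 to 19 with single libraries left out.

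**Figure D4:**
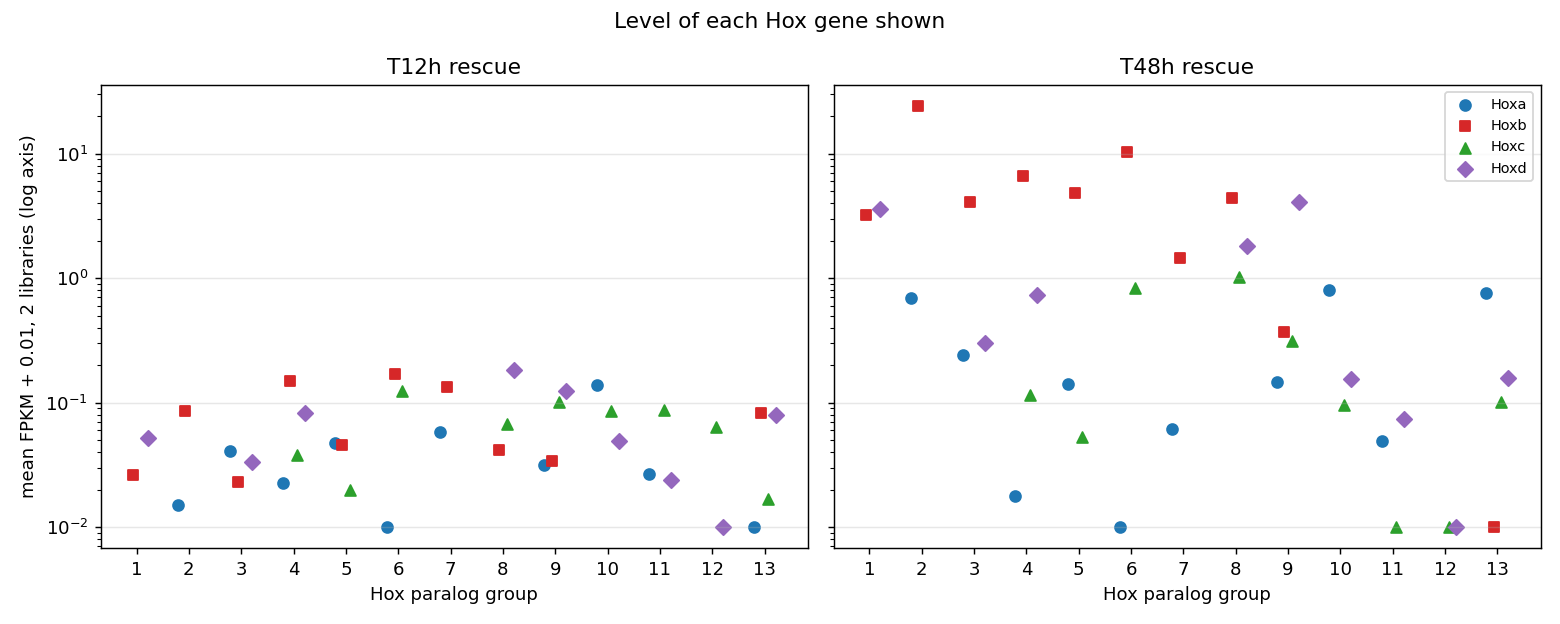
Mean FPKM plus 0.01 on a log axis of the Hox genes, all but 1 that is not reported here, ordered by paralog group from anterior (1) to posterior (13), in the T12h rescue (left) and the T48h rescue (right), coloured by cluster. In the early rescue no gene exceeds 0.173 FPKM, and in the late rescue Hoxb2 lies highest at 24.1 FPKM.

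Imprinted genes included some of the most abundant transcripts that rose. Of 17 loci 10 rose and 4 fell. H19 read 635 and 667 CPM in the T12h rescue and 6466 and 5915 CPM in the T48h rescue and Peg3 809 and 838 CPM in the T12h rescue and 6740.0 and 6738 CPM in the T48h rescue, although the authors' software marked the estimate of Peg3 as failed in at least 1 column. Igf2, the neighbour of H19, rose by 0.92. Phlda2, a growth-restraining gene of extraembryonic tissue, read 1.04 and 1.01 CPM in the T12h rescue and 188 and 151 CPM in the T48h rescue, and Cdkn1c rose by 2.23. Mest fell from 5287 to 2485 CPM, Peg12 by 1.96 and Igf2r by 1.79.

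Glycolysis and hypoxia genes rose in 18 of 23 members, with a median of 0.74. Slc2a1, the glucose transporter, rose from 569 to 1507 CPM, against 1020.0 CPM in WT. Pfkp rose by 2.65, Ndrg1 by 2.59 and Vegfa by 0.74. The early rescue lay below WT in 17 of the 23, where 6.11% of all genes did. The late rescue lay above WT in 13, where 23.9% of all genes did. Eno1 fell by 0.51. The locus named Gapdh in the table read 1.00 CPM in WT and 0.456 CPM in the late rescue, far below the other enzymes of the list, and did not pass. Cell cycle genes differed little: 5 of 24 rose and 9 fell, none 2-fold, with Mki67 up by 0.49 and Ccnd1 down by 0.97. Without T12h rescue library b 3 rose. Stress response genes rose in 7 of 12, led by Trib3 and Asns (2.00 and 1.10), and none fell. Of 22 p53 targets 8 rose and 10 fell, and Cdkn1a, the inhibitor of the cell cycle, was at 79.5 and 69.2 CPM and did not pass (adjusted p = 0.0566, edgeR).

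Of 20 pluripotency genes 13 fell and 3 rose, with a median of -0.83. The early rescue was already below WT in 16 of the 20, where 6.11% of all genes were. Klf2, Dppa2 and Nr0b1, which fell, lost their calls with only the 2 rescue groups in the fit. Pou5f1 (Oct4) was at 6.67 and 3.71 CPM and Zfp42 (Rex1) at 6.50 and 1.76 CPM, against 231 and 62.9 CPM in KO. Dnmt3b, Fgf5 and Dppa4 rose by 0.77, 2.01 and 3.16. Germline genes were scarce, with 3 of 17 higher and 3 lower. In the endoderm list 9 of 20 rose and 4 fell: the keratins Krt8, Krt18 and Krt19, which other epithelia and early mesoderm also express, rose by 3.28, 2.55 and 1.70, and Afp and Rbp4 of visceral endoderm fell by 4.19 and 2.15. The endoderm factors Sox17 and Hnf4a were at 29.1 and 13.7 CPM in the early rescue and 24.8 and 14.7 CPM in the late rescue, and did not pass. In the trophoblast list 3 of 10 rose, Gata3, Cdx2 and Plac1, by 3.54, 3.77 and 4.95. The defining trophoblast genes Elf5 and Tfap2c were at 0 and 3.24 CPM in the late rescue. Tpbpa fell, a call lost without T12h rescue library a or T48h rescue library a.

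The difference between late and early rescue was set beside that between KO and WT, which shares no library with it. KO had 2889 genes 2-fold higher (17.9%) and 2525 genes 2-fold lower (15.7%) than WT. Of the genes 2-fold higher in the late rescue, 742 were also 2-fold higher in KO, 41.8% of the first list and 25.7% of the second. Of the genes 2-fold lower, 791 were also 2-fold lower in KO, 41.3% and 31.3% of the lists. Opposite directions were found in 206 genes higher in the late rescue and lower in KO and in 357 of the reverse kind. Across all 16130 genes, which are not independent replicates, the differences had a Pearson r of 0.281 and a Spearman rho of 0.184. A test of the difference of the differences passed for 4699 genes with a larger value between the rescues (29.1%) and 4289 with a smaller one (26.6%).

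In KO against WT all 15 eye field genes fell, where 32.4% of all genes did. Of the 17 cardiac factors 7 rose and 4 fell, where 31.7% and 32.4% of all genes did. Rax changed by -7.93 in KO against WT and by -9.13 between the rescues, a difference of -1.20 (adjusted p = 0.00417, edgeR). For Six3 the values were -7.18 and -7.08, for which the difference did not pass (difference 0.11, SE 0.23, adjusted p = 0.712, edgeR). For Hand1 they were 0.52 and 7.60 (difference 7.09, adjusted p = 1.72e-10), and for Tnnt2 3.88 and 10.10 (difference 6.22, adjusted p = 2.28e-05). Of the cardiac factors 15 of 17, of the eye field genes 13 of 15 and of the p53 targets 19 of 22 passed this test, against 55.7% of all genes. In KO 18 of the 22 p53 targets rose, where 31.7% of all genes did. Among them was Mdm2, which rose by 2.16 in KO and by 0.48 between the rescues.

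**Figure D5:**
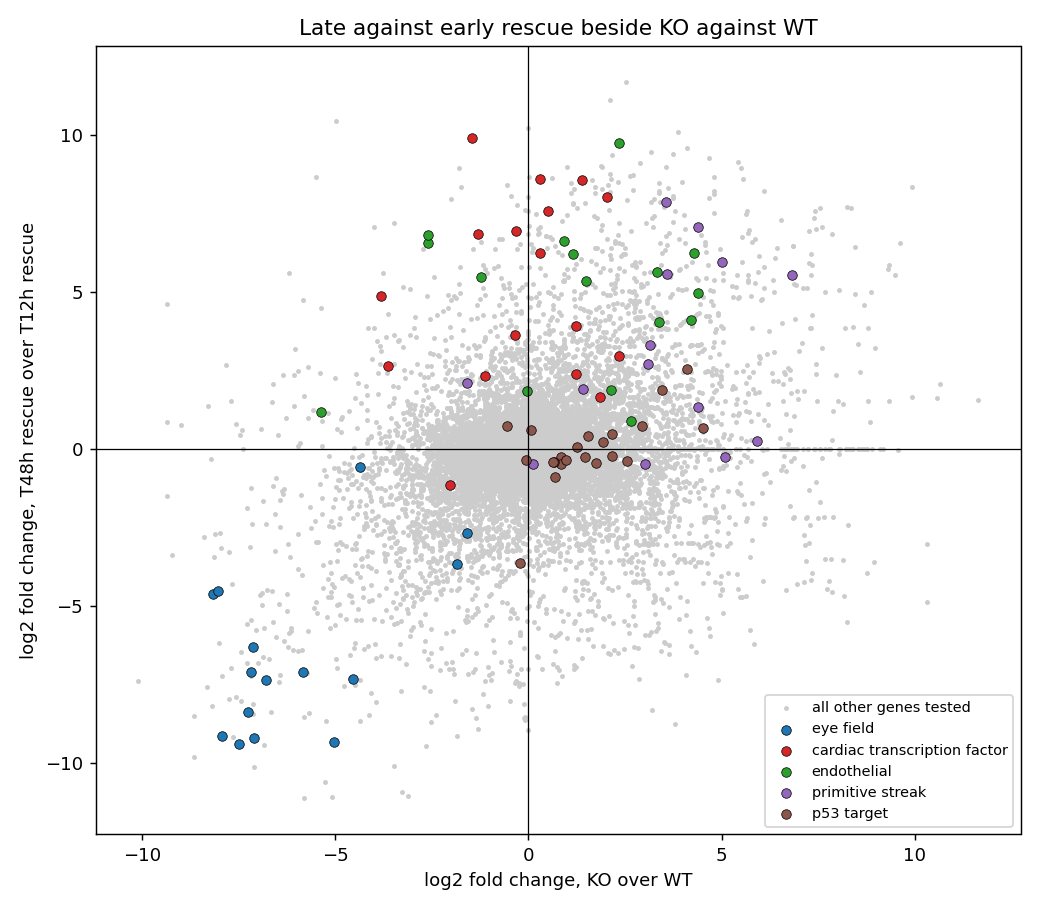
Each point is a gene, with the log2 fold change of KO over WT on the horizontal axis and of T48h rescue over T12h rescue on the vertical axis. Eye field genes lie low on both axes, cardiac transcription factors are spread around 0 horizontally and lie high vertically, and p53 targets lie to the right near 0 vertically.

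Genes of chromosome 8 were shifted upwards against WT in every group of the knockout clone. Its 852 genes had a median of 0.49 in KO against WT, 0.49 in the T12h rescue against WT and 0.39 in the T48h rescue against WT. Between the rescues the median was -0.09, with 21.8% of its genes higher and 30.5% lower. Medians of the other chromosomes between the rescues lay between -0.11 and 0.15.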

How the data were processed

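RNA-seq of 16 samples in 4 groups was analysed from the tables of the whole series. Per the submitters' processing notes, reads were processed with TopHat2 2.1.1, SAMtools 1.5, Cufflinks 2.2.1 and deepTools on mm10, in no stated order. Which annotation was used, and whether counting was stranded, is not given in the sources used here. The deposited table of expected counts per locus holds Cufflinks estimates scaled between columns, per the file headers and values: 1 fragment was worth 0.63 to 1.29, and 88.6% to 91.9% of values were whole within 0.02 fragments after division by it. The deposited FPKM table gave gene names and per-length levels. Of 28432 loci, 5143 had no name (3.15% to 6.18% of counts) and 23282 named loci were kept, leaving out 7 that the authors' software marked as holding too many fragments. The 112 columns of bounds and status values were not used as measurements.

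The rescaled counts were rounded to whole numbers, and the 2 technical columns of each library were summed. Column names give the group and a running number, without the replicate number of the labels. Columns 1 and 2, and 3 and 4, of a group were taken as technical repeats: their counts differed by a chi-square per gene of 1.62 to 1.85, against 9.54 to 17.4 between pairs. edgeR 4.0.16 in R 4.3.3 fitted all 4 groups together with TMM scaling, its default filter (16130 genes) and the quasi-likelihood test, leaving 4 residual degrees of freedom. The common biological coefficient of variation was 12.6%. p-values were adjusted by Benjamini-Hochberg over all genes tested. DESeq2 1.42.0 and limma 3.58.1 on log2(FPKM + 1) or log2(FPKM + 0.1) were alternatives. The procedure was tested on simulated data. Intervals of count ratios are exact 95% intervals and, like the floor of 3 counts, cover counting error only.

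The comparison, its gene lists and their members were chosen with earlier results of these data known. Names were taken as Wdr5, Rax, Six3, Hand1, Tnnt2, the 15 largest changes in each direction (adjusted p under 0.05, at least 5 CPM in the higher group, no overlap, named single genes), from each list the members of smallest adjusted p (5 at most), and members that passed against their list. Other members named were chosen after their values were seen. A few list members enter the counts but are not reported here.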

Additional observations from a re-analysis of the deposited data

How the results depend on the processing

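No paired analysis was possible because the column names carry no replicate number of the labels. Leaving out each rescue library in turn, with the lone library assumed to vary like the other groups, gave 2834 to 3517 higher and 3395 to 3874 lower genes, and 1470 to 1650 higher and 1689 to 2039 lower genes at 2-fold. With limma on log2(FPKM + 1), which shrinks low genes, 1043 genes were higher and 879 lower at 2-fold, against 1774 and 1917. Upper-quartile scaling gave 3439 higher and 4746 lower genes, and the median of all genes moved from -0.0311 to -0.115. DESeq2 gave 4086 and 3961. For the difference of differences, leaving out each library gave 3888 to 4497 larger and 3764 to 4262 smaller values. Of 452 members and named genes that passed, 381 kept direction and call under all 15 alternatives. Counts of list members were recomputed under all of these as an alternative chosen after seeing the data. The eye field count stayed at 15 lower throughout. Besides the cases given with their lists, germline genes that fell numbered 1 with only the rescue groups fitted, stress response genes that fell numbered 2 and COMPASS/MLL subunits that fell 5 with upper-quartile scaling (and 1 without T12h rescue library b), those that rose numbered 1 without library b of either rescue, blood genes that fell numbered 0 or 1 under 8 alternatives, paraxial genes that rose numbered 1 under 4, hypoxia and glycolysis genes that fell numbered 2 without T48h rescue library b, midbrain and hindbrain or paraxial genes that fell numbered 1 under 3 alternatives each, and cadherins that rose numbered 0 without the genes of chromosome 8, where those genes lie. With 2 libraries a group, a difference in scarce genes may go undetected.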
